A study of Vigna unguiculata with 30 samples.

Results

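The genes described here were abundant in cowpea (Vigna unguiculata) leaves and differed little between canopy positions and growth stages. They were chosen from measured values. A gene was taken when its mean over 30 leaf libraries was at least 100 CPM (counts of the gene per 1000000 counts of the library, after TMM scaling). The largest of its 6 group means also had to lie less than 0.50 above the smallest on the log2 scale, about 1.4 times, and its standard deviation (SD) over the 30 libraries under 0.25 of its mean. Of 31948 gene models, 1758 reached 100 CPM, and 233 of these met both limits on evenness, 13.3% of the abundant genes. These 233 are called even genes below, and the remaining 1525 are called the other abundant genes. The level, the spread and every difference between groups were part of the choice, so they are given as a description. Calls from a fit across all genes are given as counts beside the share of all genes called, and no p-value is given for a single gene.

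Genes with steady transcript levels include those for basic upkeep of the cell, such as protein synthesis and turnover, and are often called housekeeping or constitutive genes. They are used as references when other transcripts are measured, and their promoters are used to drive transgenes in many cells and stages at once. Leaves at different heights of a canopy differ in age and in the light they receive. The series title names native promoters of cowpea and a web application, and the leaf libraries are the measurements used here. The gene identifiers could not be tied to gene names or products with the tables at hand (0 matched), so no function is given for any gene.

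All libraries came from the line IT97K-499-35, grown in the ground of a greenhouse with supplemental light. Leaf punches were taken from the top, middle and bottom of the canopy at stage R3, 6.5 weeks after planting, and at stage R1, 5.5 weeks after planting. These 3 positions and 2 stages gave 6 groups of 5 libraries, labelled biological replicates. The labels do not say whether the replicates came from separate plants, so the spread between libraries may be in part technical. Punches are bulk tissue, in which fewer cells of a type and less RNA per cell cannot be told apart. Leaf cell markers were not checked, because the identifiers carry no names.

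The libraries held 10490354 to 17420944 counts. At this depth the lowest count of an even gene in any library was 522 and the median was 1870. Counting error alone would give an SD of 0.0236 of the mean for the median even gene, against an observed median of 0.154. For the other abundant genes the medians were 0.0213 for counting error and 0.382 observed.

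Replicate 2 of the top R3 group stood apart from the other libraries. In it, 50.6% of the even genes lay within 25% of their own mean over the 30 libraries, against 77.3% to 99.6% in the other 29 libraries. It held the highest value of all 30 libraries for 53 even genes (22.7%) and the lowest for 62 (26.6%). The same counts among the other abundant genes were 241 (15.8%) and 411 (27.0%). With that library left out, 272 genes met the rule, 218 of them among the 233. Beside several results below, the value without that library is also given.

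Even genes were mostly at the lower end of the abundant range. Their median of the mean CPM was 140 (range 100 to 2446), against 173 for the other abundant genes. Divided by the length of the gene model, the medians were 68.0 CPM per kb for even genes and 105 CPM per kb for the other abundant genes. The share of abundant genes that were even was 18.2% between 100 and 150 CPM (135 of 740), 14.1% between 150 and 200 CPM (50 of 354) and 9.20% between 200 and 300 CPM (24 of 261). It was 8.11% between 300 and 500 CPM (15 of 185), 6.31% between 500 and 1000 CPM (7 of 111) and 1.87% at 1000 CPM or more (2 of 107). Each step up in level thus held a smaller share of even genes.

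**Figure D1:**
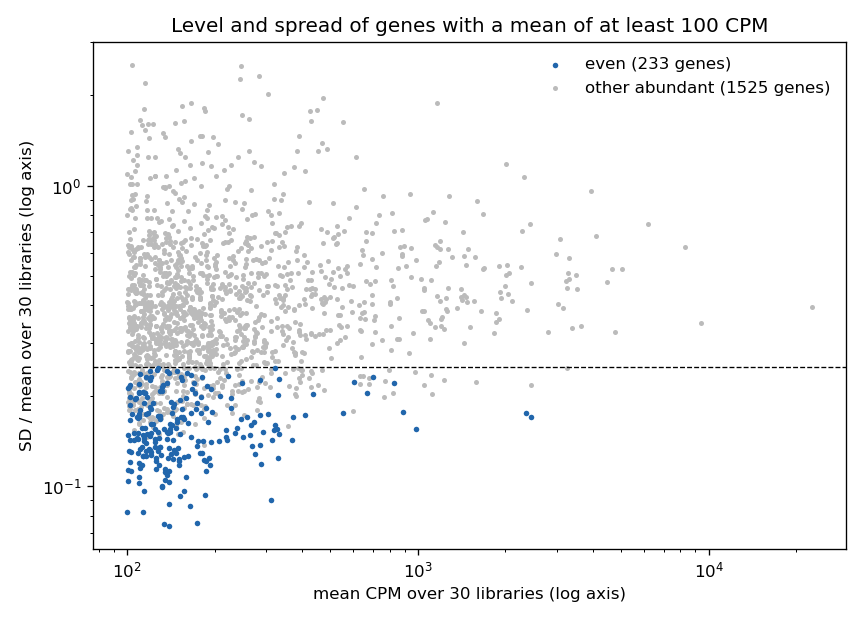
Each point is 1 of the 1758 abundant genes, with its mean over 30 libraries (CPM, log axis) against its SD divided by that mean (log axis). The 233 even genes are in blue, the other 1525 in grey, and the dashed line is the limit of 0.25; 2 even genes pass 1000 CPM, and none passes 2446 CPM.

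Of the 1758 abundant genes, 280 met the limit on group means and 491 met the limit on the spread. Only 47 met the limit on group means and missed that on the spread, while 258 met the limit on the spread and missed that on group means. The median even gene had a highest library 1.89 times its lowest (range 1.38 to 3.26), against 4.75 times for the other abundant genes. The median for even genes was 1.80 without top R3 replicate 2. Even by this rule, most of these genes therefore moved by more than 1.5 times between the extreme libraries.

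The even gene with the highest CPM was Vigun04g096500, on the plus strand of chromosome 4 from 20546579 to 20549779 (coordinates are those of the deposited table; the sources used here give no genome build). Its level was 1149 CPM per kb, also the highest per length of the 233. At R3 it had 2391, 3943, 2206, 2304 and 2288 CPM in top leaves, 2686, 2657, 2469, 1918 and 2609 CPM in middle leaves and 2263, 2213, 2746, 2365 and 2746 CPM in bottom leaves. At R1 the values were 2142, 2852, 2752, 1955 and 2114 CPM in top, 2199, 2603, 2439, 2203 and 2193 CPM in middle and 2133, 2137, 2170.1, 2343 and 3344 CPM in bottom leaves. The ranges of all 6 groups overlapped, and their means lay between 2327 and 2626 CPM. The 2 highest values belonged to top R3 replicate 2 and bottom R1 replicate 5. Without top R3 replicate 2 its SD fell to 0.130 of the mean, against 0.170 with all libraries.

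Vigun09g108850 followed in CPM, with a mean of 2363 CPM and 857 CPM per kb (chromosome 9, minus strand, 22998866 to 23004610, 14 exon blocks). At R3 it had 1789.8, 1964, 2043, 1889 and 2341 CPM in top leaves, 2806, 2505, 2199.6, 2401 and 2690.3 CPM in middle leaves and 3153, 3239, 2564, 2202 and 2657 CPM in bottom leaves. Its R1 values were 1727, 2331, 2043, 1672 and 2355 CPM in top, 1872, 2722, 2686, 2221 and 2864 CPM in middle and 1974, 2652, 2846, 2181 and 2291 CPM in bottom leaves. Top leaves had the lowest group mean at both stages, 2005 ± 209.6 CPM at R3 and 2026 ± 323 CPM at R1, and bottom R3 the highest at 2763 ± 431 CPM (SD, n = 5). The top and bottom ranges overlapped at both stages. Among the 1758 abundant genes this gene ranked 31 by CPM and Vigun04g096500 ranked 27.

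No even gene had a mean between these and 1000 CPM. Vigun05g169200 came next with 987 CPM and 319 CPM per kb (chromosome 5, minus strand, 29004718 to 29008977). At R3 it had 835, 1458, 803, 864 and 906 CPM in top leaves, 975, 928, 906, 896 and 988 CPM in middle leaves and 979.7, 915, 1052, 1057 and 1076 CPM in bottom leaves. At R1 it had 938, 1176, 1079.7, 789 and 880.2 CPM in top leaves, 922, 1036, 989.5, 1035 and 1026 CPM in middle leaves and 916, 837, 897, 1011 and 1426 CPM in bottom leaves. Its largest group mean was 1.08 times its smallest, and 1.19 times with top R3 replicate 2 left out. As for Vigun04g096500, top R3 replicate 2 and bottom R1 replicate 5 gave the 2 highest values, and all group ranges overlapped.

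**Figure D2:**
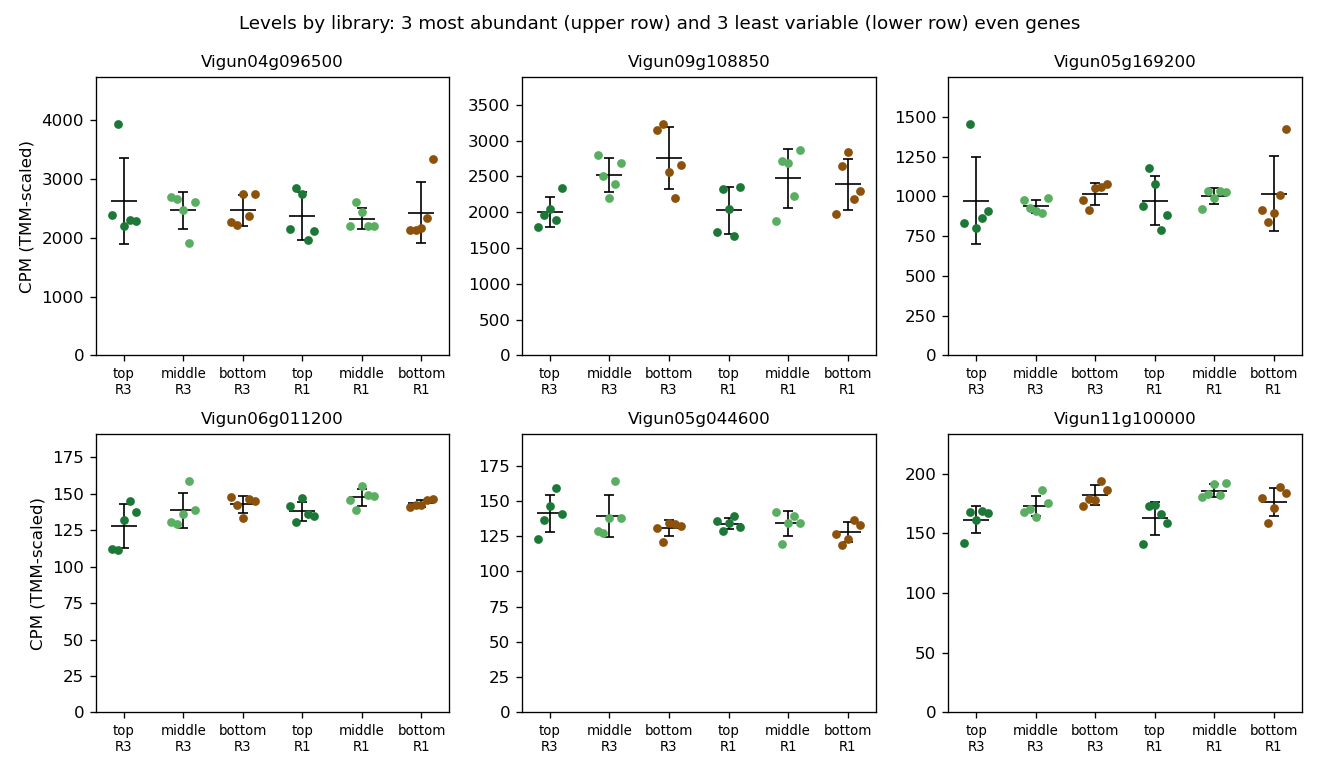
Level (CPM, linear axis from 0) of the 3 even genes with the highest CPM (upper row) and the 3 with the lowest spread (lower row), with groups from top R3 at the left to bottom R1 at the right. Points are libraries and bars are the group mean and SD (n = 5); Vigun04g096500 stays between 1918 and 3943 CPM, and its highest point is top R3 replicate 2.

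The other 7 of the 10 even genes with the highest CPM had means of 435 to 891 CPM. Vigun03g444500, at 891 CPM, ranged over libraries from 574 to 1255 CPM. Vigun11g041400, a gene of 2 exon blocks at 831 CPM, ranged from 489.7 CPM in top R3 replicate 2 to 1307 CPM in top R3 replicate 3. Its largest group mean was 1.47 times its smallest without top R3 replicate 2, past the limit. Vigun03g383400 (667 CPM), Vigun05g213800 (604 CPM), Vigun11g149100 (553 CPM) and Vigun08g113600 (435 CPM) had an SD of 0.205, 0.223, 0.176 and 0.202 of the mean. The SD of all 10 was at or above the median of the 233.

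Vigun03g204800 was the even gene whose ratios to the other even genes varied most over the libraries. It is a model of 1 exon block and 723 bases on the plus strand of chromosome 3 (33129723 to 33130445), with 700.5 CPM and 969 CPM per kb. In R3 leaves its values were 802, 366, 950.4, 585 and 711 CPM at the top, 759, 877, 798, 428 and 735 CPM in the middle and 799, 697, 652, 304 and 745 CPM at the bottom. In R1 leaves they were 509.9, 518, 575, 666 and 808 CPM at the top, 924, 732, 862, 655 and 729.5 CPM in the middle and 874, 538, 767, 825 and 821 CPM at the bottom. The values within each R3 group spanned more than 1.5 times, while group means ran from 615 to 781 CPM. Its group means were thus closer together than its single libraries, whose SD of 0.231 of the mean was still inside the limit of 0.25.

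The lowest spread over libraries belonged to Vigun06g011200, a model of 32 exon blocks spread over 33430 bases on the plus strand of chromosome 6 (5059575 to 5093004). Its R3 values were 112, 112, 132, 145 and 137 CPM in top leaves, 131, 129, 136, 159 and 139 CPM in middle leaves and 148, 142, 133, 146 and 145 CPM in bottom leaves. At R1 it stood at 142, 131, 147, 136 and 135 CPM in top leaves, 146, 139, 155, 149 and 149 CPM in middle leaves and 141, 142, 142, 146 and 146 CPM in bottom leaves. Its SD was 0.0741 of a mean of 140 CPM. The 5 bottom R1 libraries lay within 141 to 146 CPM, the lowest values were top R3 replicates 1 and 2, and all groups overlapped.

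Vigun05g044600 (chromosome 5, plus strand, 3691507 to 3696544) had an SD of 0.0748 of a mean of 134 CPM. Its values at R3 were 123, 137, 146, 159 and 141 CPM in top leaves, 129, 127, 138, 165 and 138 CPM in middle leaves and 131, 121, 135, 134 and 133 CPM in bottom leaves. Those at R1 were 136, 129, 134, 139 and 131 CPM in top leaves, 142, 119, 135, 139.7 and 135 CPM in middle leaves and 127, 119, 123, 136 and 133 CPM in bottom leaves. All 6 ranges overlapped, and the largest group mean was 1.10 times the smallest.

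Vigun11g100000 (chromosome 11, plus strand, 29404939 to 29413378, 25 exon blocks) had an SD of 0.0757 of a mean of 173 CPM. At R3 its levels were 142, 168, 162, 169 and 167 CPM in top leaves, 168, 171, 164, 186 and 175 CPM in middle leaves and 173, 179, 178, 194 and 187 CPM in bottom leaves. At R1 they were 141, 173, 174, 166 and 158 CPM in top leaves, 181, 183, 191, 182 and 192 CPM in middle leaves and 179, 159, 171, 189 and 184 CPM in bottom leaves. Here the groups did separate in part: all 5 middle R1 libraries lay above all 5 top R3 and all 5 top R1 libraries. At R3 all 5 bottom libraries lay above all 5 top libraries, while the middle and top ranges overlapped. These groups were singled out after their values were seen.

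The remaining 7 of the 10 lowest spreads were those of Vigun11g204200 (0.0819 of the mean), Vigun01g169200 (0.0820), Vigun02g088200 (0.0863), Vigun01g001301 (0.0873), Vigun10g198400 (0.0902), Vigun07g261400 (0.0931) and Vigun11g179100 (0.0937). Their mean levels ran from 100.1 CPM for Vigun11g204200 to 313 CPM for Vigun10g198400. No gene was among both the 10 highest levels and the 10 lowest spreads.

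CPM depends on how libraries are scaled, whereas the ratio of 2 genes in the same library does not. For each even gene the SD over libraries of its log2 ratio to every other even gene was averaged. The median of this ratio SD was 0.303 (range 0.236 to 0.440) for the even genes, against 0.607 for the ratios of the other abundant genes to the even genes. Leaving out any 1 library kept the median for even genes between 0.286 and 0.307. The lowest values belonged to Vigun11g100000 (0.236), Vigun06g011200 (0.240), Vigun01g169200 (0.247), Vigun01g001301 (0.248) and Vigun05g044600 (0.249), all 5 also among the 10 lowest spreads in CPM. The same counts underlie both measures, so this is a second description and not an independent one.

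Within groups, the median SD of an even gene was 0.175 of its mean in top R3, 0.0912 in middle R3, 0.111 in bottom R3, 0.109 in top R1, 0.0905 in middle R1 and 0.128 in bottom R1. The other abundant genes had 0.291, 0.218, 0.247, 0.205, 0.171 and 0.293 in the same order. The top R3 value for even genes was 0.115 without top R3 replicate 2. After that library, bottom R1 replicates 5 and 1 had the smallest shares of even genes near their mean, 77.3% and 81.5% within 25%.

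**Figure D3:**
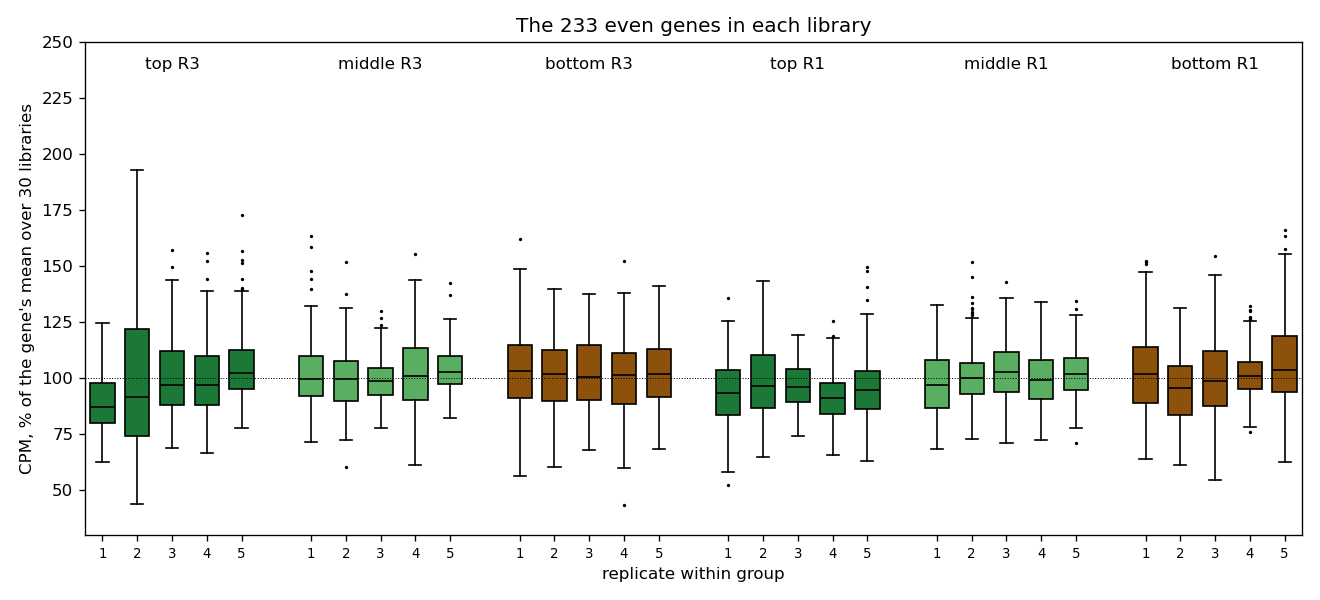
Box plots of the levels of the 233 even genes in each library, as a percentage of each gene's mean over 30 libraries (box, quartiles with the median; whiskers, up to 1.5 box heights; dots, genes beyond), grouped from top R3 at the left to bottom R1 at the right. The spread is widest in top R3 replicate 2, where 50.6% of the genes lie within 25% of their mean.

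Small differences between groups remained inside the limits of the rule. The median group level of the even genes, as a percentage of the gene's own mean, was 99.1% in top R3, 101% in middle R3, 102% in bottom R3, 94.5% in top R1, 100.3% in middle R1 and 101.7% in bottom R1. With DESeq2 size factors the medians were 101.4% in top R3, 101.3% in bottom R3 and 95.4% in top R1. By library size alone they were 87.8%, 111.0% and 94.9% in the same order, so the order of top and bottom R3 depends on the scaling. Without top R3 replicate 2 the top R3 median after TMM scaling was 96.9%. Single genes reached from 79.0% to 124%. Top R1 was the lowest of the 6 groups for 71 even genes (30.5%, against 29.8% of the other abundant genes). Top R3 was the lowest for 53 (22.7%, against 10.6%). Bottom R3 was the highest for 64 (27.5%, against 23.7%) and bottom R1 for 50 (21.5%, against 14.6%). Without top R3 replicate 2 these counts were 72, 61, 64 and 51. Of the other abundant genes, 33.2% were highest in top R3 and 39.0% lowest in bottom R3. The share of each gene's variance that lay between groups had a median of 35.1% for even genes and 56.4% for the other abundant genes.

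The scaling carried part of these levels. As a share of unscaled counts, the 233 genes summed to 4.08 ± 0.218% in top R3, 4.52 ± 0.338% in middle R3, 5.13 ± 0.306% in bottom R3, 4.41 ± 0.184% in top R1, 4.52 ± 0.238% in middle R1 and 5.18 ± 0.258% in bottom R1 (SD, n = 5 each). After TMM scaling the sums were 4.59 ± 0.280%, 4.70 ± 0.138%, 4.71 ± 0.127%, 4.38 ± 0.214%, 4.67 ± 0.141% and 4.68 ± 0.236%. Unscaled, the even genes thus took a larger share of bottom libraries than of top libraries at each stage. The mean TMM factors were 0.891 and 1.01 in top R3 and top R1, against 1.09 and 1.11 in bottom R3 and bottom R1. Without TMM, 185 genes met the rule, 117 of them among the 233. With that replicate 2 of top R3 left out, the top R3 sum was 4.01 ± 0.179% unscaled and 4.54 ± 0.295% scaled (SD, n = 4).

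**Figure D4:**
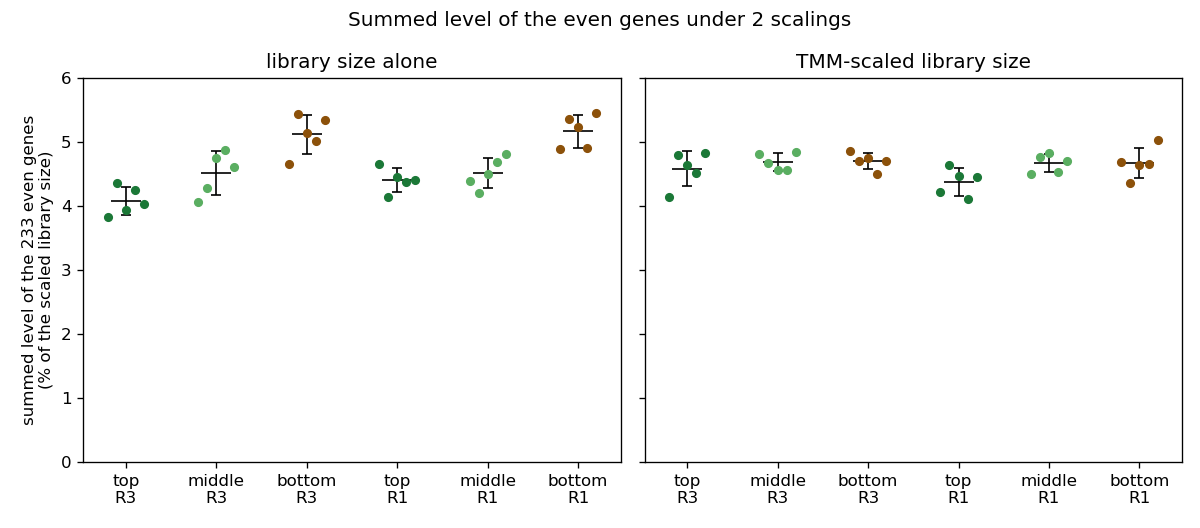
Summed level of the 233 even genes as a percentage of each library, by library size alone (left panel) and with TMM scaling (right panel), with groups from top R3 at the left to bottom R1 at the right; points are libraries and bars are the group mean and SD (n = 5). By library size alone the share is highest in bottom leaves, 5.13% at R3 and 5.18% at R1, and after scaling all 6 group means lie within 4.38% to 4.71%.

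The rule was also applied to 1 stage at a time, with the scaling of all 30 libraries kept, and the other stage was then looked at. At R3 alone 413 of 1809 abundant genes met it (22.8%), and 306 of these (74.1%) also met it at R1. Of the 1396 abundant genes that missed it at R3, 171 (12.2%) met it at R1. In the other direction, 544 of 1692 abundant genes met it at R1 (32.2%), of which 306 (56.2%) met it at R3, against 64 of 1148 (5.57%) of those that missed it. Without top R3 replicate 2, 542 genes met it at R3, and 59.6% of these met it at R1, against 12.5% of the rest. Of the genes that met it at R1, 59.4% then met it at R3, against 162 of 1148 (14.1%) of those that missed it at R1, so the share of 5.57% rests on that library. Genes even at 1 stage were thus even at the other more often than abundant genes that missed the rule. The stages share the line, the positions and the scaling step, and no test was run over genes.

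The models of even genes had more exons than those of other abundant genes, a feature the rule did not use. Exons of a model that overlap were merged into blocks. Even genes had a median of 9 blocks (quartiles 5 and 13), against 5 for the other abundant genes and 4 for all 31948 models. Only 2 of the 233 (0.858%) were of 1 block, against 140 of the other 1525 (9.18%) and 19.4% of all models. The count was 4 of 272 without top R3 replicate 2, and 5 of 185 (2.70%) with libraries scaled by size alone. At least 10 blocks were present in 103 even genes (44.2%), in 376 other abundant genes (24.7%) and in 15.3% of all models. The 2 models of 1 block were Vigun03g204800 and Vigun02g078700, the second named after its values were seen.

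The share of abundant genes that were even grew with the number of blocks. Of 142 genes of 1 block, 2 were even. The share was 9.52% for 2 to 4 blocks (53 of 557), 12.9% for 5 to 9 blocks (75 of 580), 18.9% for 10 to 19 blocks (74 of 391) and 33.0% for 20 or more blocks (29 of 88). Within the lowest levels, 100 to 150 CPM, the shares were 2.13%, 12.3%, 17.1%, 25.1% and 40.4% in the same order. At 300 CPM and above they were 2.22%, 5.41%, 4.80%, 10% and 13.3%, the last from 15 genes. Even genes had a median of 9 blocks between 100 and 150 CPM, 8 between 150 and 300 CPM and 7.5 above that, against 5, 6 and 5 for the other abundant genes. The difference in exon number was thus seen at each level of abundance. Without top R3 replicate 2 the shares were 2.82% for 1 block and 36.0% for 20 or more. With libraries scaled by size alone, the median was 7 blocks for even genes and 5 for the other abundant genes.

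**Figure D5:**
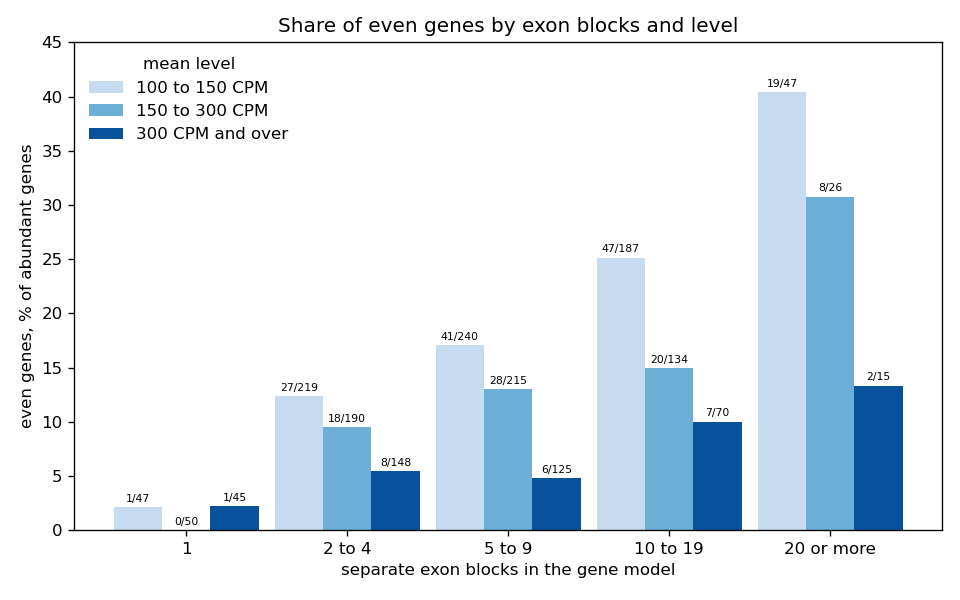
Share of abundant genes that were even (percent, axis from 0) by the number of exon blocks of the gene model, with a bar for each of 3 ranges of mean level and the number of even and abundant genes above it. At 100 to 150 CPM the share grows from 2.13% for models of 1 block to 40.4% for models of 20 or more.

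Length went the same way over all abundant genes, but less regularly within ranges of level. Even genes had a median model length of 2270 bases and a median span of 5219 bases on the chromosome, against 1887 and 3573 bases for the other abundant genes. The share that was even stayed between 10.3% and 11.1% for models under 3000 bases, and was 23.2% between 3000 and 5000 bases and 26.6% at 5000 bases or more. Across the 1758 abundant genes, Spearman's rho with the SD divided by the mean was -0.35 for blocks, -0.38 for span, -0.21 for length and 0.21 for mean CPM. Genes are not independent replicates, and longer models also tend to have more blocks, so these are descriptions without a p-value.

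The extremes among the even genes show the range. The longest model, Vigun08g065200, had 10483 bases in 9 blocks and 121 CPM. The shortest, Vigun10g184250, had 576 bases in 4 blocks and 319.6 CPM, which made it 1 of the 5 highest per length at 555 CPM per kb. Vigun10g003600 had the most blocks, 51, at 119.8 CPM. Vigun08g001800 had the most listed exons, 385 in 18 blocks, at 148 CPM (exons that overlap each other are listed separately in the table and counted once in a block).

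In position the even genes were close to the other abundant genes. All 233 lay on the 11 chromosomes, with the most on chromosome 3 (37). Their share of the abundant genes of a chromosome ran from 9.80% on chromosome 4 (10 of 102) to 14.4% on chromosome 7 (28 of 195). The outer 20% at each end of the chromosomes held 152 even genes (65.2%) and 64.3% of the other abundant genes. The median distance upstream to the next gene model was 6873 bases for even genes and 6650.5 bases for the other abundant genes. That neighbour ran in the opposite direction, head to head, for 121 even genes (51.9%) and for 47.8% of the other abundant genes. An overlap with the upstream neighbour was found for 0 of 233 even genes and 19 of 1522 other abundant genes on the chromosomes. It was found for 525 of 30468 models in all, so it was rare in each set.

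Exons of 3 even genes (1.29%) overlapped another model, against 63 (4.13%) of the other abundant genes. These were Vigun07g252700, Vigun07g239400 and Vigun07g294500, named after their values were seen. The sources used here give no strand setting for the counting, so their levels are uncertain.

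Even genes were neighbours of each other in 4 places. The closest pair, Vigun10g198400 and Vigun10g198500, lies head to head on chromosome 10, on the minus strand from 41108162 to 41114008 and on the plus strand from 41114705 to 41119528, with 696 bases between them. Vigun10g198400 had 290.3, 366, 309, 363 and 304 CPM in top, 275, 279, 313, 357 and 308 CPM in middle and 277, 276, 299.7, 335 and 320.4 CPM in bottom leaves at R3. It had 374, 331, 333, 325 and 319 CPM in top, 326, 268, 309, 290.0 and 304 CPM in middle and 342, 286, 306, 294 and 316 CPM in bottom leaves at R1. All its groups overlapped, with an SD of 0.0902 of the mean.

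Vigun10g198500 had 111, 149, 102, 104 and 109 CPM in top, 104, 120.1, 116, 130.0 and 109 CPM in middle and 121, 123, 136, 134 and 134 CPM in bottom leaves at R3. At R1 it showed 107, 131, 109, 105 and 97.1 CPM in top, 86.1, 109, 97.7, 102 and 114 CPM in middle and 86.2, 102, 94.0, 109 and 127 CPM in bottom leaves. Its 5 bottom R3 libraries lay above all 5 middle R1 libraries. Per length, Vigun10g198400 had 122 CPM per kb and Vigun10g198500 had 69.0 CPM per kb. The other pairs, named after their positions were seen, were Vigun01g228900 with Vigun01g229000, Vigun05g297000 with Vigun05g297100 and Vigun09g226200 with Vigun09g226300, with gaps of 1184, 1361 and 1471 bases. Of all neighbours of even genes, 1.72% were even genes (8 of 466), against 1.05% of the neighbours of other abundant genes.

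The limits of the rule cut through a continuous range. Vigun11g204200 lay just inside the limit on level at 100.1 CPM, and Vigun01g081300 just outside at 99.7 CPM. For the ratio of group means, Vigun08g162200 was inside at 1.413 and Vigun05g295600 outside at 1.415. For the spread, Vigun07g239400 was inside at 0.249 and Vigun06g031000 outside at 0.251.

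The gene just inside the limit on group means was chosen for the size of its difference between groups, and its values are given as they stand. Vigun08g162200 (chromosome 8, plus strand, 33472667 to 33486975) had 228, 225, 225, 235 and 277 CPM in top leaves, 257, 253, 258, 336 and 295 CPM in middle leaves and 301, 309, 324, 382 and 366 CPM in bottom leaves at R3. At R1 it had 249, 276, 269, 281 and 253 CPM in top leaves, 333, 295, 317, 292 and 328 CPM in middle leaves and 387, 321, 318, 308 and 337 CPM in bottom leaves. The top and bottom ranges did not overlap at either stage.

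Differences between groups were also counted in a fit of all 20284 genes that passed the filter on low counts, with a Benjamini-Hochberg adjusted p under 0.05 in edgeR's quasi-likelihood test. All 233 even genes passed that filter. Because the rule limits the differences between group means, the counts of called even genes are descriptions, and nothing is read from their distance to the share over all genes.

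In top against bottom leaves at R3, 59 even genes were called, where 51.9% of all tested genes were. Of these, 22 were higher and 37 lower in top leaves, beside 26.1% higher and 25.8% lower over all tested genes. At R1, 39 were called, 6 higher and 33 lower in top leaves, beside 43% called, 22.2% higher and 20.8% lower over all tested genes. The median log2 fold change of the 233 was -0.04 at R3 and -0.08 at R1, with a median size of 0.17 and 0.16. DESeq2 size factors gave 59 at R3, 28 higher and 31 lower, beside 27.2% higher and 24.3% lower over all tested genes. The median log2 fold change of the 233 at R3 was then -0.009. At R1 they gave 40, 8 higher and 32 lower, beside 22.5% higher and 20.5% lower over all tested genes. With libraries scaled by size alone, 117 even genes were called at R3 and 78 at R1, all lower in top leaves. Over all tested genes that scaling called 58.7% at R3 (39.7% lower in top leaves) and 44.7% at R1 (26.9% lower), so the split by direction depends on the scaling for all genes too.

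Between stages, 2 even genes were called in top leaves, 1 in middle leaves and 12 in bottom leaves, where 1.56%, 2.48% and 16.2% of all tested genes were called. Over all tested genes, 0.799% were higher and 0.759% lower at R3 in top leaves, and 1.06% higher and 1.42% lower in middle leaves. In top leaves the called genes were Vigun01g079600 and Vigun07g078800, with a log2 fold change (R3 against R1) of 0.35 and 0.41. In middle leaves Vigun04g153600 was called, with a log2 fold change of -0.33. These 3 were named after their values were seen. The rule limits these contrasts, so nothing is read from a single call. In bottom leaves 8 were higher and 4 lower at R3, beside 7.71% higher and 8.53% lower over all tested genes. These counts rested on single libraries. In top leaves, leaving out 1 library gave 0 to 15, with 15 (7.44% of all tested genes) without top R3 replicate 2 and 0 or 1 without most of the other libraries. In middle leaves it gave 0 to 5, with 5 (6.81% of all tested genes) without middle R3 replicate 1, 4 without middle R1 replicate 2 or top R3 replicate 2, and 0 or 2 without some of the others. In bottom leaves it gave 2 (8.75% of all tested genes) without bottom R1 replicate 1, 5 without any 1 of bottom R3 replicates 3, 4 and 5 and of bottom R1 replicate 4, 6 without bottom R1 replicate 3, and 17 (19.2% of all tested genes) without top R3 replicate 2.

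The median SE of a log2 fold change of an even gene was 0.13, and a gene that was not called is not shown to be at the same level in both groups. Over these 5 comparisons, which share groups, 149 even genes (63.9%) were called in none, 55 (23.6%) in 1 and 29 (12.4%) in 2. Of all tested genes, 34.3% were called in none, 23.7% in 1 and 35.1% in 2, and nothing is read from the difference, since the rule limits these same contrasts.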

How the data were processed

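PolyA RNA of 30 leaf libraries was sequenced. The authors deposited raw counts of each gene and normalized values. The submitters' processing notes name HISAT2, featureCounts and DESeq2, with neither versions nor roles, and the sources used here state no genome build or strand setting. The deposited normalized signal equalled the raw counts divided by DESeq2 size factors for 100% of values (tolerance 0.001), so the deposited counts were used throughout. Every value column was matched to a library (0 left over), and 0 rows named no gene. Sample titles gave the groups. Within groups, no library was a copy of another. In the 60 pairs of the same group, chi-square per degree of freedom was 16.6 to 189 (genes with at least 20 counts). Pairs across groups were not checked in this way.

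CPM is the count divided by the column total times the TMM factor of all rows (edgeR 4.0.16, R 4.3.3), times 1000000. Ratios between genes used log2 with a pseudocount of 0.5 counts. Exon blocks, neighbours and positions came from the table's own coordinates. Differences between groups came from 1 quasi-likelihood fit of the 6 groups in edgeR (filterByExpr by group, TMM, 24 residual degrees of freedom, 20284 genes), with Benjamini-Hochberg adjusted p under 0.05 over all genes. The SE was derived from the fold change and the F statistic. The members of the set, the lists and the tests were chosen with earlier results of these data known. Named genes were the 10 highest in CPM, the 5 highest per kb, the 10 lowest in spread, the 5 lowest in ratio SD, the longest, the shortest, those with most exons, the closest adjacent pair, and the genes nearest to each limit. Planned lists by product name and of leaf cell markers were not used, because 0 identifiers matched the reference table (annotation version 1.2 in the files). Alternatives were other scalings, filters and limits, DESeq2 1.42.0, a replicate block and leaving out each library. Exon blocks under other scalings, TMM factors of filtered genes, the divisor of the SD and the ratio SD without each library were alternatives added after seeing the data.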

Additional observations from a re-analysis of the deposited data

Results flagged for a closer look

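Libraries of a group of 5 are named here when 1 of them lay apart from the other 4 by Dixon's 95% criterion. This held for 18 of 174 groups examined (10.3%). Chance alone gives about 1 in 20 for independent groups. These groups share the same 30 libraries and chosen genes, so nothing is read from the difference. For Vigun04g096500 these were top R3 replicate 2 (3943 CPM, the others 2206 to 2391), middle R3 replicate 4 (1918 CPM, the others 2469 to 2686) and bottom R1 replicate 5 (3344 CPM, the others 2133 to 2343). Vigun05g169200 had 1458 CPM in top R3 replicate 2, the others 803 to 906. Vigun10g198500 had 149 CPM in top R3 replicate 2, the others 102 to 111. The share of the 233 even genes within 25% of their mean was 50.6% in the same library, the others 86.7% to 91.0%. So 4 of the 18 fell in top R3 replicate 2.

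Vigun03g444500 had 1255 CPM in top R1 replicate 5, the others 754 to 844. Vigun05g213800 had 700.3 CPM in bottom R1 replicate 5, the others 449 to 508. Among the genes of low spread, Vigun05g044600 had 121 CPM in bottom R3 replicate 2 (others 131 to 135) and Vigun11g100000 had 142 CPM in top R3 replicate 1 (others 162 to 169). Vigun01g001301 had 113 CPM in top R3 replicate 1 (others 135 to 139.6), 148 CPM in top R1 replicate 1 (others 126 to 130.5) and 111 CPM in middle R1 replicate 2 (others 139 to 148). Vigun10g198400 had 374 CPM in top R1 replicate 1, the others 319 to 333. Vigun11g179100 had 225 CPM in middle R3 replicate 4 (others 148 to 168) and 169 CPM in middle R1 replicate 2 (others 185 to 190.0). Vigun08g001800 had 183 CPM in bottom R1 replicate 3 (others 149 to 158), and Vigun08g162200 had 277 CPM in top R3 replicate 5 (others 225 to 235). What set these libraries apart was not tested.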

How the results depend on the processing

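The number of even genes, 233, depends on the limits: it was 759 with a mean of at least 50 CPM, 48 with at least 200 CPM, 71 with group means within 0.32 of each other on the log2 scale and 491 within 2 times. Over the libraries left out in turn it ran from 216 to 272, and 149 of the 233 met the rule in all 30 cases. Other scalings gave 185 (library size alone) and 232 (DESeq2 size factors). Library size alone moved the spread of 18 of the 30 named genes past its own error, and DESeq2 size factors moved 0. Most of the 1920 values of named genes under the alternatives came from leaving out 1 library. Of those 0 moved, but 1 library of 30 could hardly move a value past the limits used, so nothing is read from it.

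Called even genes, in the order top against bottom at R3 and R1, then R3 against R1 in top, middle and bottom leaves, numbered 59, 39, 2, 1 and 12. The share of all tested genes called under the same setting is given in brackets. Library size alone gave 117 (58.7%), 78 (44.7%), 10 (4.23%), 0 (1.43%) and 5 (13.1%). A log2 fold change of at least 0.32 in size left 38 (50.3%) and 22 (41.7%) of the first pair. Without the filter on low counts the stage counts were 1 (0.804%), 0 (0.938%) and 6 (10.1%), and DESeq2 gave 12 (3.11%), 15 (5.09%) and 20 (15.6%). Leaving out libraries gave 49 to 65 (47.6% to 52.4%), 27 to 52 (36.5% to 45.9%), 0 to 15 (0.419% to 7.44%), 0 to 5 (0.326% to 6.81%) and 2 to 17 (8.75% to 19.5%). Without top R3 replicate 2 they were 65 (47.6%), 52 (45.9%), 15 (7.44%), 4 (4.42%) and 17 (19.2%). The rule at 1 stage carried over to the other for 79.2% (R3) and 44.1% (R1) under library size alone. Replicate numbers gave no clear pairing: same-numbered correlations of deviations ran from -0.456 to 0.533, the highest between stages in top leaves. In each comparison 0 to 3 of 10 libraries correlated best with their own number. Whether same-numbered libraries shared a plant cannot be told from this. With a replicate block the called counts were 66 (51.7%), 42 (43.9%), 1 (1.73%), 1 (3.64%) and 13 (15.7%), and 250 genes met the rule. The median counting error of an even gene was 0.0236 of its mean at this depth.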
